A study of Mus musculus with 9 samples.

Results

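Cathepsins are the proteases of the lysosome, and 9 of their genes (Ctsa, Ctsb, Ctsc, Ctsd, Ctsh, Ctsk, Ctsl, Ctss and Ctsz) are described here across cultures of mouse mammary tumor and mammary gland cells. The members were taken as every probe set whose platform annotation gave exactly 1 gene symbol equal to one of these names, which yielded 14 probe sets for 9 genes, out of 20380 probe sets for 12393 genes that the annotation names in this way. Ctsb had 4 probe sets, Ctsz had 3 and the other members had 1 each. RNA was profiled on 9 MOE430A arrays, Affymetrix chips for mouse transcripts, with 3 arrays for each of 3 kinds of culture. Tumorspheres (TMS) are floating spheres grown from independent mammary tumors of MMTV-Neu (N2O2) mice, in which the mammary tumor virus promoter drives a Her2/Neu transgene in mammary epithelium. Mammospheres (MMS) are the corresponding spheres grown from mammary glands of virgin female FVB/N mice 6 to 8 weeks of age, which carry no transgene. Both were kept in stem cell medium, passaged weekly and harvested at passage 3 to 5. In the last group (diffMMS), mammospheres were dissociated, plated on rat-tail collagen and held for 7 days in medium with serum to induce differentiation. The groups therefore differed in transgene, tissue of origin, attachment and serum, and these cannot be told apart within a comparison. No source says whether the mammosphere preparations came from separate animals, so the p values measure the spread between these cultures alone.

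Most cathepsins are made as inactive precursors, carried to the lysosome by sorting receptors that recognize mannose 6-phosphate, and activated there at low pH. Cathepsins B, C, H, K, L, S and Z are cysteine proteases, cathepsin D is an aspartic protease and cathepsin A a serine carboxypeptidase. Cystatins and stefins inhibit the cysteine members, and when the enzymes are secreted by tumor or stromal cells they can cut collagen and other matrix proteins.

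All levels below are log2 of the deposited intensity plus 8.67, after quantile normalization, so that a difference of 1 is a doubling and changes of dim probe sets are understated. A level of one probe set cannot be set against the level of another. On this scale the table had a median of 6.57 and a lowest value of 3.88. Calls are by limma at an adjusted p under 0.05. The tumorsphere arrays also carry a run of array codes of their own, so that array run and tumorsphere culture cannot be told apart. RNA was taken from whole cultures, in which fewer cells of a type and less RNA per cell cannot be told apart. Among marker genes of the labelled tissue, 13 luminal epithelial genes had a summed intensity of 5076 to 8643 in TMS, 838 to 942 in MMS and 871 to 1060 in diffMMS. The lowest of them in MMS, Cdh1 (E-cadherin), lay at 4.05 to 4.28 in MMS and 4.06 to 4.23 in diffMMS, close to the lowest value of the table. Others stood above the table median, with Krt8 at 7.08 to 7.52 in MMS and 7.11 to 7.48 in diffMMS. Cldn3 lay at 7.92 to 8.18 in MMS and 8.44 to 8.93 in diffMMS. Of 9 basal epithelial markers, 5 were higher in diffMMS than in MMS and none lower, beside 18.0% and 16.1% of all genes. The contractile genes Acta2 (2.60) and Mylk (1.98) led, while the keratins Krt5 (0.19), Krt14 (-0.01) and Krt17 (0.04) did not pass. The summed intensity of the 9 markers was 927 to 1016 in TMS, 880 to 952 in MMS and 2700 to 4081 in diffMMS. The falls of the cathepsins in diffMMS thus went with a rise of the contractile genes Acta2 and Mylk. The 9 fibroblast genes had summed intensities of 14892 to 16947 in TMS, 18270 to 19524 in MMS and 17403 to 19366 in diffMMS. These sums hide changes in both directions in diffMMS against MMS. The largest called rises were those of Thy1 (1.42) and Mfap5 (1.40), and the largest falls those of Lum (-1.82) and Fap (-1.04). The cultures described as mammary epithelial thus showed less summed signal of luminal markers in MMS and diffMMS than in TMS. The part of these marker differences in the cathepsin values was not tested.

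Differentiation was accompanied by lower levels of 5 of the 9 cathepsins (Ctsk, Ctsb, Ctsl, Ctsc and Ctsd) relative to MMS, and by a rise of none, against 16.1% of all genes lower and 18.0% higher in the same comparison. The median difference of the 9 genes was -0.37 on the log2 scale, beside 0.05 for all genes. The count was 3 (Ctsk, Ctsb and Ctsl) when TMS replicate 2, MMS replicate 2 or 3, or any 1 diffMMS array was left out. TMS differed from MMS in 4 members. Ctsc and Ctss were higher, and Ctsl and Ctsa were lower, where 6.21% of all genes were higher and 7.11% lower. The median of the 9 members was -0.01 and that of all genes 0.00. TMS exceeded diffMMS for Ctsk, Ctsc, Ctsb and Ctss and fell below it for none, with 12.3% of all genes higher and 12.7% lower. Here the medians were 0.34 for the 9 members and -0.03 for all genes. The 3 comparisons share their arrays in pairs and are not independent of each other. The shares of all genes given here are also the ones to set beside the counts of other gene lists in the same comparisons. When each array was centred on its median in place of quantile normalization, the share of higher genes among all calls went from 46.6% to 32.1% for TMS against MMS and from 52.8% to 38.9% for diffMMS against MMS, and Ctsa and Ctsz were then also called lower in diffMMS.

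**Figure D1:**
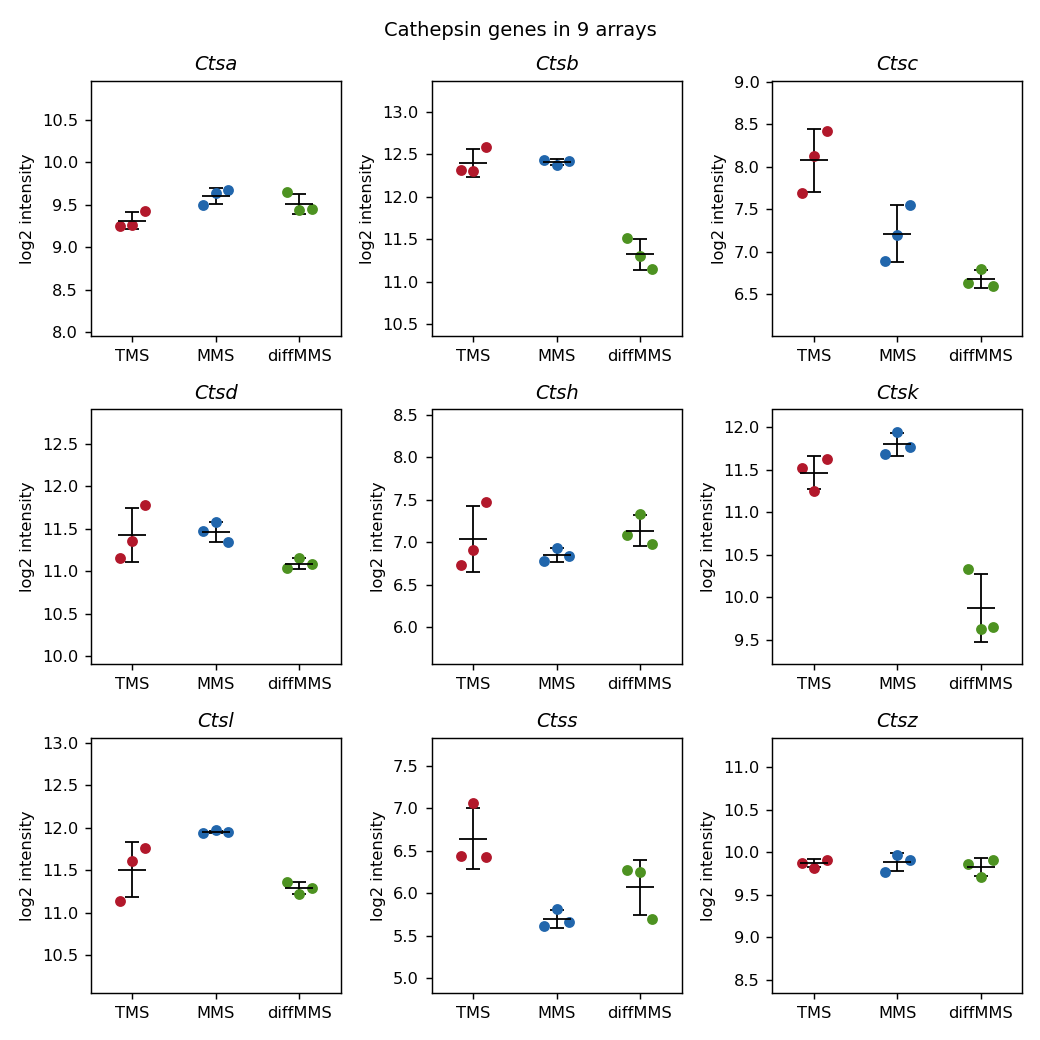
Log2 intensity (y axes, each spanning the same number of log2 units) of the 9 cathepsin genes in TMS, MMS and diffMMS, with 1 point per array and bars for the mean and SD (n = 3), each gene by its brightest probe set. Ctsk and Ctsb stand clearly lower in diffMMS than in both kinds of sphere, Ctsc and Ctss stand highest in TMS, and Ctsz (1417870_x_at) is level.

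The collagen-degrading protease cathepsin K, best known from the osteoclast, showed the largest difference of the 9 genes in these comparisons. Ctsk (1450652_at) had levels of 11.52, 11.25 and 11.63 in TMS, 11.68, 11.95 and 11.76 in MMS, and 10.34, 9.63 and 9.66 in diffMMS. All diffMMS arrays lay below all arrays of the spheres. The fall from MMS was 1.93 on the log2 scale (SE 0.168, limma adjusted p = 4.4e-06), a level 3.80-fold lower, and TMS exceeded diffMMS by 1.59 (adjusted p = 2.7e-05). The deposited intensities gave the same picture, at 3354 to 3958 in MMS and 751 to 1118 in diffMMS. TMS and MMS did not overlap either, but the difference of -0.33 (95% interval -0.70 to 0.03, limma adjusted p = 0.229) did not pass the test, although with array weights it did (-0.46, adjusted p = 0.0169).

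Ctsk lies on chromosome 3 at chr3:95499210-95509387 (GRCm38.p6), and Ctss, the gene of cathepsin S, follows it at chr3:95526786-95556405 with 17398 bases between them. These neighbors had different patterns across the cultures, since Ctss was highest in TMS. The 250 bases before the RefSeq start of each are printed here, from GRCm38.p6, together with those of Ctsd. Ctsd was another member called lower in diffMMS, though its call depended on single arrays. Entries were found for 7 of the 9 members. Capitals mark the E-box CACGTG, the core of the site read by MITF and TFEB, and the ETS-type motif GAGGAAG, on either strand. The Ctsk window is chr3:95498960-95499209 on the plus strand, the Ctss window chr3:95526536-95526785 on the plus strand and the Ctsd window chr7:142387828-142388077 on the minus strand.
Ctsk: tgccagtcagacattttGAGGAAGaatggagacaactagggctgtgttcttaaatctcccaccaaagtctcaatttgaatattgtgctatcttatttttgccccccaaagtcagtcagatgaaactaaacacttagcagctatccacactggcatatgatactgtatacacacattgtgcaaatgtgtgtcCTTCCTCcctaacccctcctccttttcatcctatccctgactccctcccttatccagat
Ctss: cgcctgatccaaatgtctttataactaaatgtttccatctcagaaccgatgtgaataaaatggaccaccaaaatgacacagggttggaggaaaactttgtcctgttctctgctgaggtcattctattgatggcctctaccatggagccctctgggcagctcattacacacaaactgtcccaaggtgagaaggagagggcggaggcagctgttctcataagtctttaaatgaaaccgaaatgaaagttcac
Ctsd: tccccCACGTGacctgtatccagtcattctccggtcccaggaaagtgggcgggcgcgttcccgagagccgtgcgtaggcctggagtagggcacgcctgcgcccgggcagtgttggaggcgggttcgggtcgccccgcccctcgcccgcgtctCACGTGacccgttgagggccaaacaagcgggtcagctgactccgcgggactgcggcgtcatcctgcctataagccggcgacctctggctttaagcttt
Ctsk held GAGGAAG at 2 positions, beginning 233 and 59 bases before the start, and no CpG, with 43.2% G and C. Ctsd held CACGTG at 2 positions, beginning 245 and 98 bases before the start, and 27 CpG, with 67.2% G and C. Ctss held neither of these motifs, but TATAAA at 233 and GGGCGG at 55 bases before the start. The motifs were also in windows not printed here. CACGTG began at 236 bases before the start in Ctsl and at 12 in 1 of the windows of Ctsa. Both windows lie inside the span of the gene and do not precede its first base. The Ctsl window is chr13:64370521-64370770 on the minus strand, within a gene at chr13:64361890-64370772. GAGGAAG began at 197 and 150 in Ctsc, and Ctsz held neither. The Ctsc window (chr7:88277835-88278084) runs past the first base of the gene at 88278024. Of 32851 windows of the same length in the RefSeq table, 6.02% held CACGTG, 10.6% GAGGAAG, 12.4% TATAAA and 32.7% GGGCGG, each searched on both strands, and the median window had 6 CpG and 52.4% G and C. The letters TGANTCA (AP-1), in 6.75% of all windows, were in none of the members' windows. A match is a description of the letters and no evidence of binding.

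Ctsb, a cysteine protease with both endopeptidase and exopeptidase activity, was read by 4 probe sets, all of which fell with differentiation. The brightest (1448732_at) gave 12.31, 12.30 and 12.58 in TMS, 12.44, 12.37 and 12.42 in MMS, and 11.51, 11.30 and 11.15 in diffMMS. The spheres overlapped each other, and every diffMMS array lay below them. The fall from MMS was 1.09 (SE 0.10, limma adjusted p = 6.9e-06), and the other 3 probe sets fell by 1.16 to 1.29. TMS exceeded diffMMS by 1.08 for the brightest probe set, and by 1.07, 1.16 and 1.36 for the others. Between TMS and MMS the brightest differed by -0.01 (95% interval -0.23 to 0.21) and the others by -0.13 to 0.06, and none passed the test.

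Cathepsin L, a lysosomal endopeptidase that is also secreted by transformed cells, was lower in both TMS and diffMMS than in MMS. Ctsl (1451310_a_at) lay at 11.94, 11.97 and 11.95 in MMS, at 11.37, 11.22 and 11.29 in diffMMS, and at 11.14, 11.60 and 11.76 in TMS. MMS stood above every other array, and the 3 TMS arrays were spread from below to above the diffMMS arrays. The fall with differentiation was 0.66 (SE 0.126, limma adjusted p = 0.00181). The difference of TMS from MMS was -0.45 (SE 0.126, limma adjusted p = 0.0332), and its call depended on single arrays. The call was lost without TMS replicate 2, diffMMS replicate 3 or any 1 of the 3 MMS arrays (-0.44 to -0.50, adjusted p = 0.0521 to 0.0977). Without TMS replicate 1 the difference shrank to -0.27, but the call was kept. TMS and diffMMS differed by 0.21 (adjusted p = 0.250), or by 0.40 (adjusted p = 0.00342) once TMS replicate 1 was left out.

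Ctsd, the gene of the aspartic protease cathepsin D, a long-studied secreted product of breast cancer cells, differed less. Its probe set 1448118_a_at gave 11.16, 11.36 and 11.78 in TMS, 11.47, 11.58 and 11.34 in MMS and 11.04, 11.16 and 11.08 in diffMMS. The diffMMS arrays lay below the MMS arrays and overlapped the lowest TMS array. The fall from MMS to diffMMS was 0.37 (SE 0.129, limma adjusted p = 0.0430). This call was lost without any 1 of 7 arrays (all but TMS replicates 1 and 3), with adjusted p = 0.0542 to 0.147, while the difference kept between -0.32 and -0.44. TMS differed from MMS by -0.04 (95% interval -0.32 to 0.25, adjusted p = 0.899) and from diffMMS by 0.34 (adjusted p = 0.0789), which became 0.48 (adjusted p = 0.0117) without TMS replicate 1.

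Ctsc encodes cathepsin C, a dipeptidyl peptidase that activates serine proteases of leukocyte granules, and was higher in TMS than in either other culture. It read 7.68, 8.12 and 8.42 in TMS, 6.89, 7.19 and 7.55 in MMS, and 6.62, 6.80 and 6.60 in diffMMS (1416382_at). The 3 groups did not overlap. TMS exceeded MMS by 0.87 (SE 0.183, limma adjusted p = 0.00822), or 1.82-fold, and exceeded diffMMS by 1.40 (adjusted p = 1.5e-04), or 2.64-fold. The fall from MMS to diffMMS was 0.54 (SE 0.183, limma adjusted p = 0.0411). That last call was lost without TMS replicate 2, MMS replicate 2 or 3, or any 1 diffMMS array (-0.36 to -0.60, adjusted p = 0.0540 to 0.174), the value of -0.36 being the one without MMS replicate 3.

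Cathepsin S, an elastin-cutting enzyme that trims the invariant chain in antigen-presenting cells, was also highest in TMS. Ctss (1448591_at) was dim, at 6.44, 7.06 and 6.42 in TMS, 5.61, 5.81 and 5.67 in MMS, and 6.27, 6.25 and 5.69 in diffMMS, so that only TMS replicate 2 lay above the table median. TMS overlapped neither other group, while diffMMS replicate 3 lay among the MMS arrays. TMS exceeded MMS by 0.95 (SE 0.178, limma adjusted p = 0.00416), or 1.93-fold. TMS exceeded diffMMS by 0.57 (SE 0.178, limma adjusted p = 0.0358), a call that was lost without TMS replicate 2 (0.36, adjusted p = 0.124), without diffMMS replicate 3 (0.38, adjusted p = 0.139) or without any 1 MMS array (0.57, adjusted p = 0.0502 to 0.0538). DiffMMS differed from MMS by 0.37 (95% interval -0.01 to 0.76, adjusted p = 0.127), and by 0.56 (adjusted p = 0.0302) without diffMMS replicate 3.

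Macrophage genes were higher in TMS than in MMS, as Ctss and Ctsc were. Of 21 macrophage markers, 11 were higher and none lower in TMS than in MMS, 9 were higher and 1 (Cd68) lower in diffMMS than in MMS, and 5 were higher in TMS than in diffMMS. The 11 became 7 without TMS replicate 2 or MMS replicate 2 and 6 without MMS replicate 3, and the 9 became 3 to 5 without any 1 MMS array or diffMMS replicate 1 or 2. Their summed intensity was 2758 to 4529 in TMS, 1337 to 1491 in MMS and 1621 to 2354 in diffMMS. TMS replicate 2, the highest array for Ctss, was also the highest for this sum, and diffMMS replicate 3, the lowest of its group for Ctss, was also the lowest of its group for the sum. The brightest genes weigh most in a sum, here Lyz2 (9.21 to 10.32 in TMS) and Lyz1 (8.87 to 10.13). With equal weights, the mean log2 level of the 21 markers was 6.50 to 6.94 in TMS, 5.99 to 6.09 in MMS and 6.13 to 6.51 in diffMMS. Ctsc was lower in diffMMS than in MMS, and its highest TMS array was replicate 3. The summed luminal markers were highest in that array too, and 11 of the 13 were higher in TMS than in MMS. Krt18 (keratin 18) read 9.79, 10.15 and 10.67 in TMS and 5.58, 5.94 and 6.27 in MMS, and Cdh1 read 5.36, 5.92 and 6.60 in TMS and 4.05, 4.22 and 4.28 in MMS. The arrays of each of these groups stood in the same order for Ctsc, Krt18 and Cdh1, but those of diffMMS did not. Among the other luminal markers, Krt8 and Cldn4 kept that order in TMS and MMS, and Krt7 in TMS alone. Epcam, Cd24a, Cldn3, Elf5, Prom1, Ehf, Kit and Krt19 did not keep it in TMS. The lysozyme genes Lyz1 and Lyz2 were 2.73 and 2.29 higher in TMS than in MMS, and the complement gene C1qa was 1.13 higher. The defining leukocyte genes Ptprc (4.85 to 5.11), Itgam (4.63 to 4.83) and Adgre1 (5.45 to 5.72) were low in all 9 arrays and passed the test in no comparison. The part of macrophage and luminal markers in the Ctss and Ctsc results was not tested. Of the 8 measured genes of the MHC class II pathway, in which cathepsin S acts, 1 (Ifi30) was lower in TMS than in MMS by 0.46 and none was higher. The Ifi30 call was lost without TMS replicate 1 or 2 or MMS replicate 2 or 3 (-0.33 to -0.46, adjusted p = 0.0633 to 0.132), and 1 gene was called higher without TMS replicate 3.

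**Figure D2:**
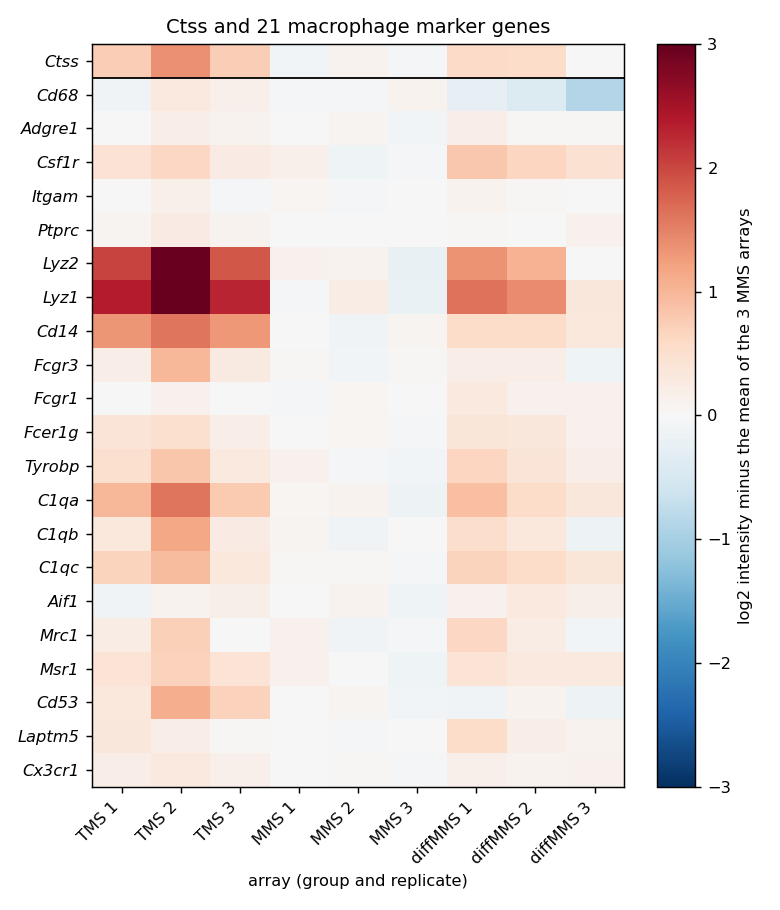
Log2 intensity minus the mean of the 3 MMS arrays (color, limited to 3 log2 units either way) for Ctss, in the top row, and 21 macrophage marker genes in the 9 arrays (columns). TMS replicate 2 holds the highest values of Ctss, Lyz1 and Lyz2, and Ptprc, Itgam and Adgre1 stay near 0.

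The other 3 members moved little. Ctsa, the gene of cathepsin A, which also protects beta-galactosidase and neuraminidase in the lysosome, read 9.25, 9.26 and 9.43 in TMS, 9.50, 9.64 and 9.67 in MMS and 9.64, 9.44 and 9.45 in diffMMS. TMS lay below MMS by 0.29 (-0.29, SE 0.0861, limma adjusted p = 0.0428), without overlap. The call was lost without TMS replicate 1 or 2, MMS replicate 2 or 3, or diffMMS replicate 2 or 3 (-0.25 to -0.29, adjusted p = 0.0568 to 0.155). DiffMMS differed from MMS by -0.09 (adjusted p = 0.440) after quantile normalization, by -0.33 (adjusted p = 0.0332) with the scaling as deposited and by -0.38 (adjusted p = 0.0294) with median centring, so that this value depended on the scaling.

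Ctsh, the gene of the aminopeptidase cathepsin H, had levels of 6.73, 6.91 and 7.47 in TMS, 6.77, 6.93 and 6.84 in MMS and 7.09, 7.34 and 6.98 in diffMMS. TMS replicate 3 alone lay above all MMS arrays among the tumorspheres. DiffMMS lay above MMS without overlap, by 0.28 (95% interval -0.07 to 0.63, limma adjusted p = 0.195), a difference called when TMS replicate 3 was left out of the fit (0.28, adjusted p = 0.0383). TMS differed from MMS by 0.19 (95% interval -0.16 to 0.54) and from diffMMS by -0.10 (95% interval -0.45 to 0.25), and neither passed the test.

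The probe sets of Ctsz, the gene of the carboxypeptidase cathepsin Z, disagreed. The brightest (1417870_x_at) gave 9.82 to 9.91 in TMS, 9.76 to 9.97 in MMS and 9.70 to 9.91 in diffMMS, with differences of -0.01 for TMS against MMS (95% interval -0.19 to 0.17), -0.05 for diffMMS against MMS (-0.23 to 0.12) and 0.04 for TMS against diffMMS. A dimmer probe set (1417869_s_at) gave 7.75 to 8.06 in TMS, 8.07 to 8.28 in MMS and 7.86 to 8.01 in diffMMS. By that one, TMS lay below MMS by 0.31 (-0.31, limma adjusted p = 0.0469) and diffMMS below MMS by 0.28 (-0.28, adjusted p = 0.0383), and each call was lost on leaving out any 1 of several arrays (7 arrays for the first, 5 for the second, adjusted p = 0.0502 to 0.174). The remaining one (1417868_a_at) differed by -0.24 in both comparisons and passed in neither.

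**Figure D3:**
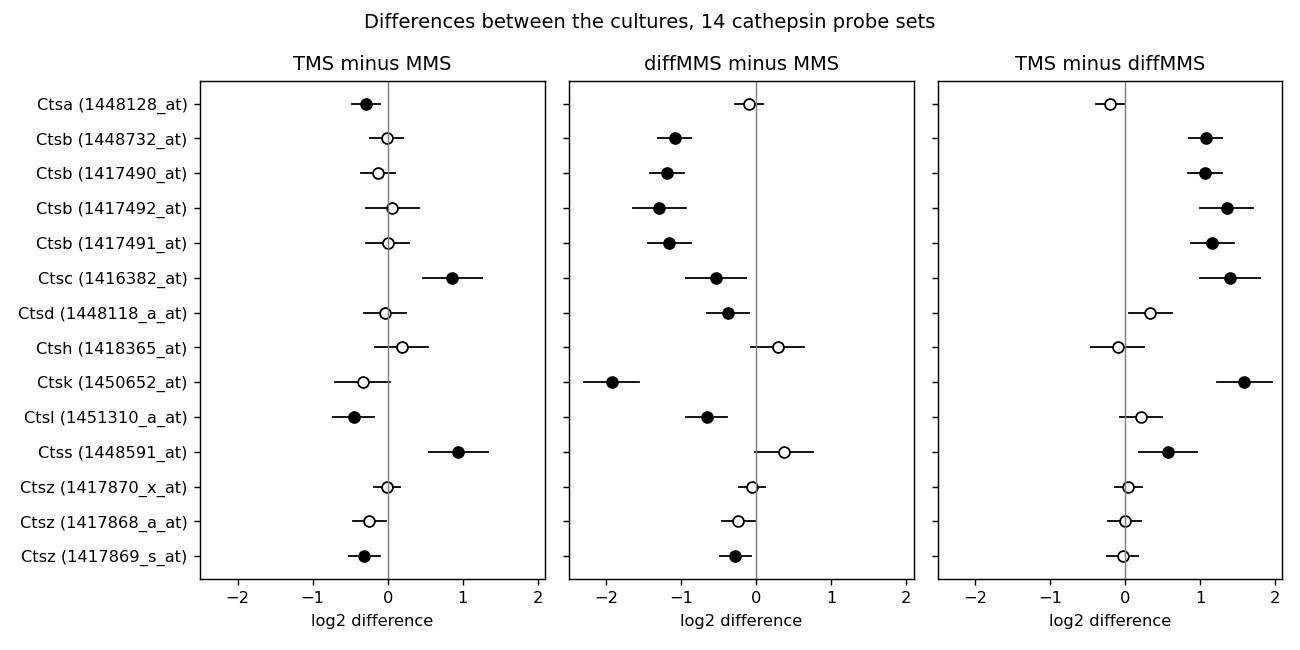
Log2 differences (x axes) of the 14 cathepsin probe sets in the 3 comparisons, with 95% intervals as lines, filled points for an adjusted p under 0.05 and open points otherwise. All 4 Ctsb probe sets lie near -1.2 for diffMMS minus MMS and near 0 for TMS minus MMS, and the 3 Ctsz probe sets do not give 1 answer.

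The remaining cathepsins on the array, 12 genes, showed few differences. None passed the test between TMS and MMS. Ctsf, a cysteine cathepsin, was 0.48 higher in diffMMS than in MMS (limma adjusted p = 0.00226), opposite in direction to Ctsb, Ctsk and Ctsl, with 8.03 in each diffMMS array and 7.45 to 7.67 in MMS. Ctsq was 0.29 higher in diffMMS than in MMS. Against diffMMS, TMS was higher for Ctse, the gene of the aspartic protease cathepsin E (0.61, adjusted p = 0.0398), and lower for Ctsf (-0.54) and Ctsq (-0.20). The Ctse call was lost without any 1 MMS or diffMMS array (adjusted p = 0.0561 to 0.118) and with median centring (adjusted p = 0.0510). The Ctsq call in this comparison was lost without TMS replicate 1 or 2, MMS replicate 1 or 2, or diffMMS replicate 1 or 3 (adjusted p = 0.0506 to 0.121). With the scaling as deposited, 5 of the 12 were higher in diffMMS than in MMS in place of 2. Ctsg and Ctsw, known from granulocytes and lymphocytes, lay at 5.61 to 5.90 and 6.85 to 7.17 and passed in no comparison. Apart from Ctsq, the placental cathepsins Cts3, Cts6, Cts7, Cts8, Ctsj, Ctsm and Ctsr all lay at 4.01 to 4.44, near the bottom of the table. These passed in none either.

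Genes of the cathepsins' inhibitors included the widest differences around the family. Cst3 (cystatin C, the main secreted inhibitor) had levels of 10.17 to 10.54 in MMS, 10.18 to 10.44 in TMS and 11.08 to 11.40 in diffMMS. It was 0.89 higher in diffMMS than in MMS (SE 0.114, limma adjusted p = 1.0e-04), and TMS lay 0.98 below diffMMS. Ctla2a, which encodes a protein resembling a cathepsin propeptide, went the same way, from 5.38, 5.49 and 5.88 in MMS to 8.76, 7.90 and 8.45 in diffMMS, a rise of 2.79 (SE 0.224, limma adjusted p = 2.2e-06). In TMS it read 4.94, 5.04 and 5.66. Its relative Ctla2b and the dim genes Cst9, Cst10 and Cst12 passed the test in no comparison. Cstb (stefin B, the inhibitor inside the cell) fell by 0.99 (SE 0.101, limma adjusted p = 1.7e-05), with 10.97 to 11.03 in MMS and 9.94 to 10.08 in diffMMS, and Cst6 (cystatin E/M) fell by 0.60 (adjusted p = 0.00852). Both were higher in TMS than in diffMMS, by 0.78 and 0.56, the second of which did not pass without diffMMS replicate 2 or 3 (adjusted p = 0.0676 and 0.0636). Of the 11 inhibitor genes measured, 3 were higher (Ctla2a, Cst3 and Cst11) and 2 lower in diffMMS than in MMS, beside 18.0% and 16.1% of all genes. In TMS against MMS 1 (Stfa3, by 0.15, at 4.40 to 4.55 in TMS) was higher, beside 6.21% of all genes. The 3 became 5 without diffMMS replicate 3 or with the scaling as deposited. The Stfa3 call was lost without TMS replicate 2, any 1 MMS array, or diffMMS replicate 2 or 3 (0.10 to 0.16, adjusted p = 0.0503 to 0.140), and without TMS replicate 3 the count lower in TMS than in MMS went from 0 to 2. The Cst11 call was lost without MMS replicate 2 or 3 or diffMMS replicate 1 or 2 (adjusted p = 0.0630 to 0.171). Cst7, a cystatin of leukocytes, was lower in TMS than in diffMMS by 0.23.

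**Figure D4:**
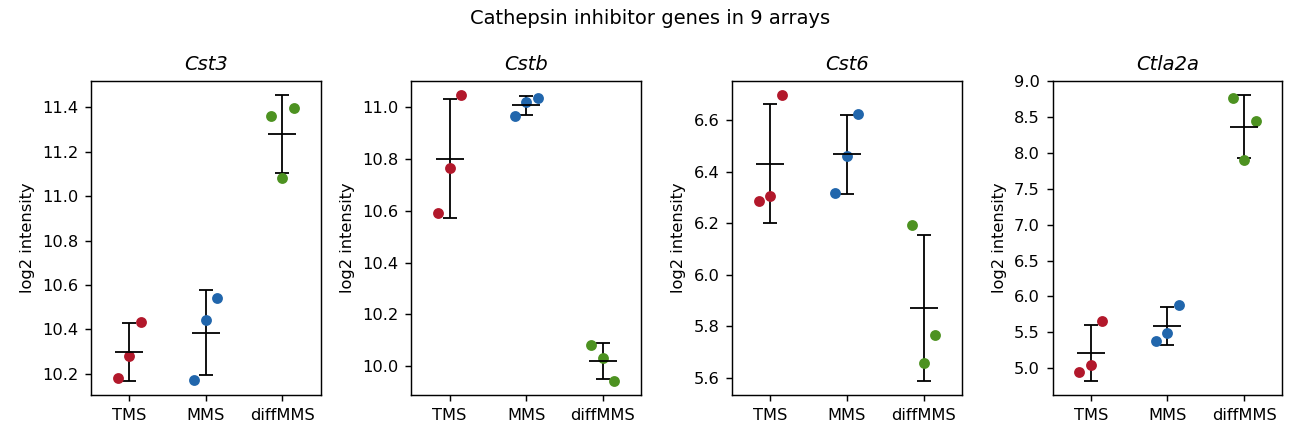
Log2 intensity (y axes, each with its own range) of the cathepsin inhibitor genes Cst3, Cstb, Cst6 and Ctla2a in TMS, MMS and diffMMS, with 1 point per array and bars for the mean and SD (n = 3). In diffMMS, Cst3 and Ctla2a stand above and Cstb and Cst6 below both kinds of sphere.

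Genes that deliver and activate cathepsins moved in different directions. Of 11 genes for activation and sorting, 2 were higher and 3 lower in diffMMS than in MMS, where 18.0% of all genes were higher and 16.1% lower. The adaptor gene Gga1 was higher by 0.49 and Gnptab, whose product makes the mannose 6-phosphate tag, by 0.26, but neither passed with median centring, nor Gga1 without MMS replicate 2 or Gnptab without MMS replicate 3. The count of 2 became 4 without TMS replicate 3. Scarb2 (LIMP-2, the receptor for glucocerebrosidase) was lower in diffMMS than in MMS by 0.78 and Psap (prosaposin) by 0.59, and both were higher in TMS than in diffMMS, by 0.83 and 0.55. Lgmn, the gene of legumain, an asparaginyl endopeptidase that processes cathepsins B, L and others, instead separated TMS from the rest. Its mean level was 9.33 ± 0.154 (SD, n = 3) in TMS, 10.23 ± 0.211 in MMS and 10.30 ± 0.0903 in diffMMS, and TMS was lower than MMS by 0.90 (-0.90, SE 0.111, limma adjusted p = 3.1e-04). The adaptor gene Gga2 was lower in TMS than in MMS by 0.53. The sorting receptor genes Sort1 and M6pr were higher by 0.34 and 0.26. The Sort1 call was lost without TMS replicate 1 or 2 or any 1 MMS array (0.26 to 0.36, adjusted p = 0.0561 to 0.0953), and that of M6pr without any 1 of 7 arrays and under both other scalings.

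Subunits of the proton pump that acidifies the lysosome were lower in diffMMS too. Of 16 V-ATPase subunit genes, 7 were lower and none higher in diffMMS than in MMS (median -0.24), 7 were higher and none lower in TMS than in diffMMS (median 0.20), and none passed between TMS and MMS. Atp6v1d (-0.64) and Atp6ap2 (-0.62) had the largest falls among those called in diffMMS. Without TMS replicate 3, however, 7 were lower in TMS than in MMS. Leaving out 1 diffMMS array brought the 7 higher in TMS to 4, 4 and 2, for replicates 1, 2 and 3. With median centring the counts were 9 lower in diffMMS, 4 higher in TMS than in diffMMS, and 2 lower in TMS than in MMS. The 29 other genes listed as lysosomal hydrolases gave no common direction with differentiation. In diffMMS against MMS, 10 were higher, among them Gm2a (0.97) and Pla2g15 (0.90), and 5 lower, among them Gla (-1.73) and Galc (-0.91), a split that turned to 7 higher and 9 lower with the scaling as deposited and to 5 higher and 9 lower with median centring, and the 10 became 6 without MMS replicate 2. In TMS against MMS 6 were lower, including Hexa (-0.60) and Glb1 (-0.55), and none higher. Of 15 genes listed as lysosomal membrane proteins, 4 were lower in diffMMS than in MMS and 1 higher. The list includes Npc2, whose product is soluble. The 4 became 2 without MMS replicate 1 or 2 and 7 without TMS replicate 3, and Lamp2 was lower in TMS than in MMS by 0.63. The median differences of the hydrolases and the membrane proteins in diffMMS against MMS were 0.06 and -0.17.

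**Figure D5:**
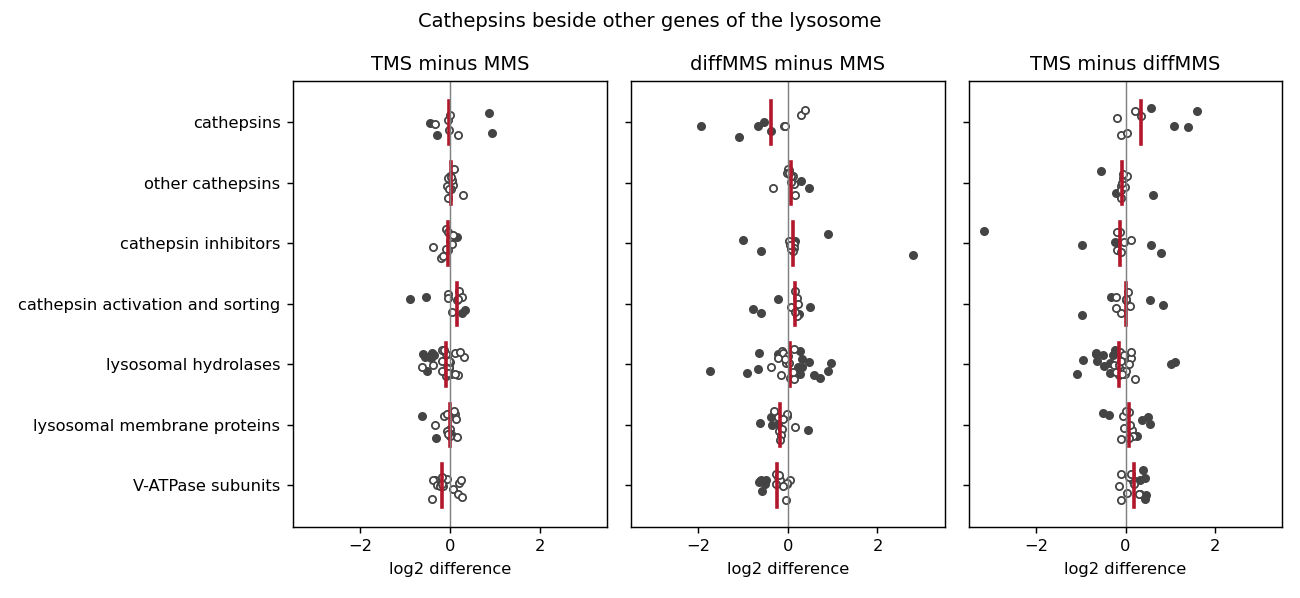
Log2 differences (x axes) in the 3 comparisons for the 9 cathepsins and 6 lists of related genes (rows), 1 point per gene by its brightest probe set, filled for an adjusted p under 0.05, with a red line at each list's median. In diffMMS minus MMS the cathepsin median (-0.37) lies left of those of the hydrolases (0.06) and the inhibitors (0.11), and in TMS minus diffMMS it lies at 0.34.

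Among 17 genes of the MiT/TFE transcription factors and the regulators of lysosomes and autophagy, Mitf, one of the factors that read the CACGTG element, was 1.65 lower in diffMMS than in MMS (SE 0.110, limma adjusted p = 4.7e-07) and 1.52 higher in TMS than in diffMMS. It was the 1 member of that list that was lower in diffMMS, while 5 were higher, led by Map1lc3a (0.78) and Wipi1 (0.63), and 3 were higher without MMS replicate 3 or diffMMS replicate 1 or 3. Tfeb, whose product reads the same element, went the other way from Mitf. Its levels were 8.45 to 8.58 in diffMMS, 8.06 to 8.29 in MMS and 8.24 to 8.63 in TMS. With median centring 5 of these genes were lower and 2 higher. The matrix proteins that secreted cathepsins can cut changed as well. Of 12 genes, 7 were higher in diffMMS than in MMS, with Eln (elastin) up by 1.36 and Sparc by 0.95, and 3 were lower, with Col4a1 (-0.94) and Col4a2 (-0.88), chains of basement membrane collagen, among them. Col1a1, a chain of the collagen I that cathepsin K cuts, lay at 12.16 to 12.19 in MMS, 12.97 to 13.20 in diffMMS and 11.81 to 12.12 in TMS. Ctsk and Col1a1 therefore differed between diffMMS and both kinds of sphere in opposite directions.

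The genes whose levels followed each cathepsin most closely were sought among 6196 genes above the median level, by Pearson's r over the 9 arrays. These arrays share 3 groups and r mostly follows the group differences, so that it is given as a description. For Ctsb these were Gng11 (0.992) and Lrig1 (0.990), and for Ctsk Cdt1 (0.990) and Atp5b (0.987). Ctss was followed by the lysozyme genes Lyz1 (0.987) and Lyz2 (0.982), both on the macrophage list. Ctsd was followed by Cdc42se1 (0.983) and Degs1 (0.956), Ctsc by Mrps12 (0.981) and Nmt1 (0.971), and Ctsl by Dnaja1 (0.961) and Nipsnap3b (0.954). Values were lower for Ctsh, with Slc38a10 (0.941) and Snx18 (0.937), for Ctsa, with Ostc (0.927) and Dhrs1 (0.923), and for Ctsz, with Rnf185 (0.883) and Ifrd2 (0.875). No cathepsin was among the pair of genes most like another cathepsin, but Ctss lay too low to be among the genes searched.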

How the data were processed

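Total RNA of 3 tumorsphere, 3 mammosphere and 3 differentiated mammosphere cultures was hybridized to 1 MOE430A array each. The authors deposited 1 table of linear intensity values, already summarised and scaled by a method not given in the sources used here; the study names GeneSpring. Array medians of the deposited intensity ran from 83.8 to 88.3, and the number of arrays limits the precision. Array quartiles lay up to 0.134 log2 units apart, so values were converted to log2(intensity + 8.67), the pseudocount being 10% of the table median, and quantile normalized. Group means of all 9 arrays were fitted with limma 3.58.1 in R 4.3.3 (lmFit, eBayes with an intensity trend, 6 residual degrees of freedom), without a filter on dim probe sets. P values are two-sided, adjusted by Benjamini-Hochberg over 22626 probe sets (22690 less 64 controls), at a threshold of 0.05. The fit was tested on simulated data. Of these probe sets, 20380 carried 1 gene symbol, 691 several and 1555 none, by platform annotation. Each gene was counted by the probe set of the highest mean. Named are every cathepsin and inhibitor, the 2 genes most like each cathepsin, macrophage markers, and in other lists the 2 largest rises and falls among called genes. The levels of single luminal markers, the basal keratins, the levels of Tfeb and the values of Col1a1 outside that rule were chosen after they were seen. Groups follow the labels, which number no replicates, and replicate numbers here follow accession order and are only names. The members and lists were chosen with earlier results of these data known. Loci and promoters are those of RefSeq on GRCm38.p6.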

Additional observations from a re-analysis of the deposited data

How the results depend on the processing

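The alternatives were the scaling as deposited, median centring, no pseudocount and a 4 times larger one, a filter on dim probe sets, no intensity trend, robust moderation, array weights, only the 2 groups compared, another threshold or probe set, and leaving out each array. Under all of these that applied, the falls of Ctsb, Ctsk and Ctsl in diffMMS against MMS, the rises of Ctsc and Ctss in TMS against MMS and those of Ctsb, Ctsc and Ctsk in TMS against diffMMS kept direction and call. The 5 cathepsins lower in diffMMS became 3 without the intensity trend or at an adjusted p under 0.01, and 3 to 5 on leaving out 1 array. The 2 lower in TMS than in MMS became 0 with only these 2 groups in the fit, 0 at an adjusted p under 0.01, 0 at a difference of at least 0.5, and 0 to 2 on leaving out 1 array. The count of 0 higher in diffMMS became 2 with only the 2 groups and 0 to 1 on leaving out 1 array. The cause was not tested. Some differences that did not pass the test changed sign on leaving out 1 array. Their ranges for TMS against MMS were -0.10 to 0.0331 for Ctsb, -0.21 to 0.10 for Ctsd, -0.0313 to 0.34 for Ctsh and -0.0691 to 0.0332 for Ctsz. For diffMMS against MMS, Ctsz ranged from -0.11 to 0.00691. For TMS against diffMMS, Ctsh ranged from -0.31 to 0.0577 and Ctsz from -0.0173 to 0.0853, or -0.0295 with its probe set of the largest F. No paired analysis was possible because the labels number no replicates and nothing ties a culture of one group to a culture of another. Dim probe sets such as that of Ctss are limited by the signal over background.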
